A study of Mus musculus with 12 samples.

Results

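The variable (V) and joining (J) segments of the mouse T cell receptor beta chain were read in 3 comparisons of tumour-specific CD8 T cells after checkpoint blockade with isotype control. The members are all listed genes whose name begins with Trbv or Trbj followed by a digit. The rule uses no measured value. It found 49 of the 48709 listed genes, 35 V and 14 J segments. GENCODE annotates 22 of the V segments as genes and 13 as pseudogenes, and 13 of the J segments as genes and 1, Trbj2-6, as a pseudogene. All 49 lie in 1 stretch of chromosome 6 (GRCm38, chr6:40891229-41558452).

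The beta chain pairs with the alpha chain to form the receptor by which a T cell recognises a peptide on an MHC molecule. During development in the thymus, recombination joins 1 V, 1 D and 1 J segment of the locus into an exon, which is spliced to the constant segment Trbc1 or Trbc2, so a mature T cell and its descendants usually express 1 productive beta V segment. The V segment encodes most of the variable domain, including the regions that mainly touch MHC, and the V-D-J junction forms the loop that mainly touches the peptide. In a bulk sample the level of a V segment therefore follows both how many cells carry it and how much RNA each makes. These data cannot tell fewer cells of a clone from less RNA per cell.

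The study injected TRAMP-C2, a transplantable mouse prostate tumour line, into wild-type C57BL/6 mice labelled postnatal day 91. Antibody was given in 4 arms (anti-CTLA-4, or anti-PD-1 DANA, whose DANA mutation removes Fc receptor binding, or both of these, here the combination, or an isotype control) on days 3, 6 and 9 per the sample labels, with day 8 in place of 9 in the series text. On day 28 live CD45+CD3+CD8+ cells positive for the Spas-1 tetramer, which marks T cells specific for a tumour antigen, and negative for Spas-2 were sorted from tumour-draining lymph nodes. Cells of the 5 mice of an arm were pooled and then split into 3 libraries, so every p-value measures the spread between splits of 1 pool, and arm and pool cannot be told apart.

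For each treatment the authors deposited a comparison with isotype, with a fold change, its p-value and only the larger of both group means, in RPKM, which scales reads by transcript length and library depth. Of the 49 segments 36 were tested, 23 V and 13 J. Low means step by whole reads, and from these steps the depth of the 12 libraries was recovered, from 14729713 to 42556869 reads, and then the whole reads behind all 85 member means above 0. Libraries are numbered 1 to 3 by depth within an arm, since the tables do not tie them to replicate numbers. The mean of a treated arm is known only where it lies above isotype, and that of isotype only where it lies above at least 1 treated arm. Elsewhere only an upper limit holds, the mean of the other arm.

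The 3′ ends of the V segments that carry the results are shown because this end joins the D and J segments and encodes the start of the junction loop. Each line gives the last 45 bases of the GENCODE transcript, read 5′ to 3′ on the coding strand, with the letters TGTGC in capitals. In most segments these letters open with the codon of the conserved cysteine that begins the loop. They stand in this window of 26 of the 35 V segments (74.3%), in 19 of 22 genes and 7 of 13 pseudogenes.
Trbv14: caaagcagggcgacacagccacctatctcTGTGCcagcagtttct
Trbv15: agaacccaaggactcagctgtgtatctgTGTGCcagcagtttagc
Trbv19: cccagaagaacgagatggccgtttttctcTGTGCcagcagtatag
Trbv26: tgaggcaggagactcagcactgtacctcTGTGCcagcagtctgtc
Trbv31: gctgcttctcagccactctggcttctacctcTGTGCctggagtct
Trbv12-1: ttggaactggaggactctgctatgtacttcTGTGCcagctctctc
Trbv12-2: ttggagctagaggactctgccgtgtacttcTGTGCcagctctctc
Trbv24: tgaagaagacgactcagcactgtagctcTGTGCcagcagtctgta
Trbv14 lies at chr6:41135145-41135616, Trbv15 at chr6:41141188-41141658, Trbv19 at chr6:41178375-41179048 and Trbv26 at chr6:41227505-41227993, all on the plus strand. Trbv31 at chr6:41557691-41558452 lies beyond the constant segments on the minus strand. Trbv12-1 lies at chr6:41113550-41114067. Of the 26 segments with the letters, Trbv24, an annotated pseudogene, is the only one with an in-frame stop codon before the cysteine in the window, 2 codons upstream.

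The J segments are short enough to print whole. The capitals mark TTNGG, then any 4 bases, then GG, where N is any base, searched on the coding strand. These are the letters for the phenylalanine-glycine motif that closes the junction loop. They stand in 11 of 14 J segments (78.6%) and not in the pseudogene Trbj2-6.
Trbj2-7: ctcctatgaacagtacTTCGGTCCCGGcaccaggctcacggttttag
Trbj2-1: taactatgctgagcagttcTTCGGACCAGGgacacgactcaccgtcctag
Trbj2-4: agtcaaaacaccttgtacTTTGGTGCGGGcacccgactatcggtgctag
Trbj1-5: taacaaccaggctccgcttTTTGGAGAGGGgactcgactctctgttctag
Trbj2-6: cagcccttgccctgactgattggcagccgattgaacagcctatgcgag

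Under the combination 5 V segments fell against isotype: Trbv14, Trbv15, Trbv19, Trbv26 and Trbv31. No segment was called higher, and no J segment was called. A call here is an adjusted p under 0.05, the authors' Benjamini-Hochberg false discovery rate over all listed genes. In the authors' deposited table of the combination 5 of 36 members were called, all lower. Of all tested genes 7.53% were called there, 3.59% as lower and 3.94% as higher. At an unadjusted p under 0.05 the same table held 8 of 36 members and 4146 of 17833 tested genes. At this unadjusted threshold the members' share was near the background. Among genes with a larger mean of 5 RPKM or more, adjusted anew, 13.5% were called lower, and the same 5 of 30 members, a share near that background. After anti-CTLA-4 the authors' deposited table called 0 of 36 segments and 4.23% of all tested genes. At an unadjusted p under 0.05 it held 1 of 36 segments and 4085 of 17833 tested genes, a smaller share of the segments. After anti-PD-1 DANA the authors' deposited table also called 0 of 36, and 3.75% of all tested genes. At an unadjusted p under 0.05 it held 2 of 36 segments and 4121 of 17833 tested genes, again a smaller share of the segments. All 3 comparisons share the isotype libraries.

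The called segments were high in a single isotype library each. Trbv15 had 1327, 4 and 3 reads in isotype libraries 1, 2 and 3, which is 149.6, 0.441 and 0.247 RPKM. Trbv19 had 1382, 3 and 3 reads, or 101.9, 0.216 and 0.161 RPKM. Trbv26 had 422, 2 and 2 reads, or 48.0, 0.222 and 0.166 RPKM. Isotype library 1 thus held more than 99% of the level of all 3 segments, and libraries 2 and 3 held a handful of reads each. Trbv31 followed the same order of libraries with 433, 1 and 1 reads, or 43.2, 0.0976 and 0.0728 RPKM. Trbv14 differed from the other called segments in its library, with 2, 865 and 77 reads, or 0.227, 95.9 and 6.37 RPKM. It was highest in isotype library 2.

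Their fold changes in the authors' deposited table were log2 values between -6.48 and -9.03, each given with the standard error that its p-value implies. In the authors' deposited table Trbv14 fell by 8.39 ± 1.83 on the log2 scale (adjusted p = 0.00154), from an isotype mean of 34.2 RPKM. In the authors' deposited table Trbv15 fell by 7.64 ± 1.82 (adjusted p = 0.0042) and Trbv19 fell by 7.43 ± 1.75 (adjusted p = 0.00386), from isotype means of 50.1 and 34.1 RPKM. The authors' deposited table had Trbv26, which fell by 9.03 ± 2.51 (adjusted p = 0.0191), and Trbv31, which fell by 6.48 ± 1.88 (adjusted p = 0.0272), from 16.1 and 14.5 RPKM. The combination's own means of the 5 segments are known only as lying under these isotype means. Without isotype library 1 the isotype means of Trbv15, Trbv19, Trbv26 and Trbv31 were 0.344, 0.189, 0.194 and 0.0852 RPKM, and without library 2 that of Trbv14 was 3.30 RPKM. When genes resting on 1 library were left out (80% or more of the larger mean from it), 16 of the 36 tested members dropped out. Of the other 20 members 0 were called under the combination, which follows from all 5 called segments resting on 1 isotype library. Of the 14063 genes left 7.06% were called. Genes whose reads were not solved could not be left out, so this share is no background free of such genes.

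**Figure D1:**
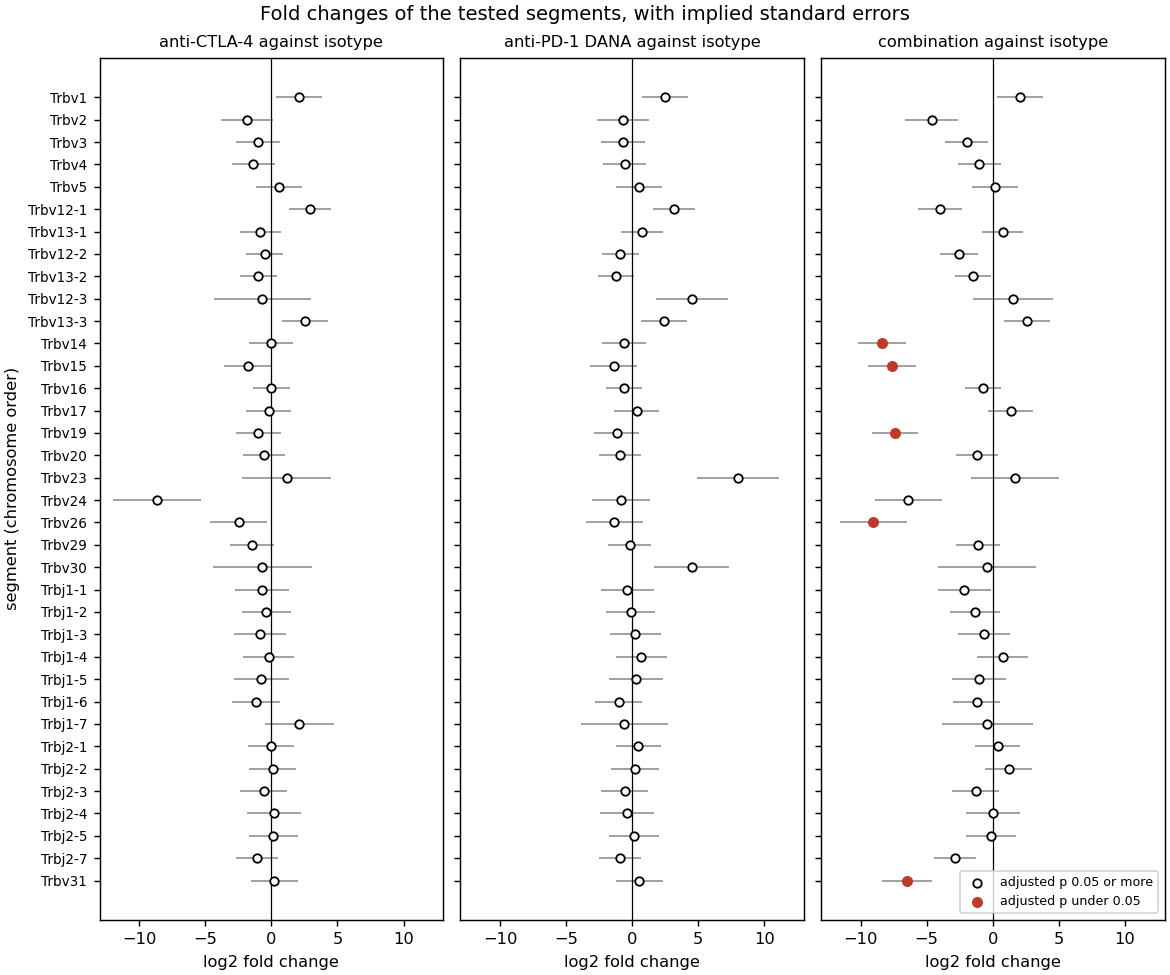
Log2 fold change against isotype (horizontal axis, authors' scale) of the 36 tested segments in chromosome order, in 1 panel per treatment; bars are the standard error implied by the deposited p-value and red points have an adjusted p under 0.05. The 5 red points are V segments under the combination, between -6.48 and -9.03.

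Of the same V segments, only Trbv14 and Trbv31 have a known level in a treated arm. Neither reached the 80% cut for resting on 1 library there. The nearest was Trbv31 after anti-CTLA-4, with 73.7% of its level in library 3. After anti-CTLA-4 Trbv14 stood at 75.5, 79.6 and 23.5 RPKM in the 3 libraries, and after anti-PD-1 DANA at 34.1, 25.8 and 44.6 RPKM. Trbv31 stood at 7.63, 17.9 and 71.5 RPKM after anti-CTLA-4 and at 49.9, 36.5 and 29.4 RPKM after anti-PD-1 DANA. Each of these libraries exceeded the 2 lowest isotype libraries of Trbv14 and of Trbv31. For Trbv15, Trbv19 and Trbv26 both single-antibody means are known only as at most the isotype mean. Their fold changes after anti-CTLA-4 in the authors' deposited table were log2 -1.80, -0.99 and -2.49, and after anti-PD-1 DANA -1.40, -1.17 and -1.35, none of them called.

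How evenly the segments were found over the 3 splits differed between arms. In isotype 5 of the 14 V segments with a mean of 5 RPKM or more reached 5 RPKM in all 3 libraries (35.7%), after anti-CTLA-4 10 of 10, after anti-PD-1 DANA 12 of 14 (85.7%) and under the combination 0 of 5. Of the J segments 3 of 9 did so in isotype (33.3%), 10 of 10 after each single antibody and 2 of 3 under the combination. Other genes within the V segments' range of reads in the arm reached 5 RPKM in all 3 libraries in 6.70% of cases in isotype, 33.8% after anti-CTLA-4, 30.5% after anti-PD-1 DANA and 11.2% under the combination. These genes were not matched by RPKM or length, nor to the reads of J segments. Their shares therefore cannot be set directly against those of the segments. In V segments, J segments and other genes alike, isotype and the combination lay below both single antibodies. In isotype 7 of 14 V segments (50.0%) and 70.6% of other genes rested on 1 library, after anti-CTLA-4 0 of 10 and 9.03%, after anti-PD-1 DANA 1 of 14 and 12.02%, and under the combination 3 of 5 and 51.5%. The differences between arms were not tested, since the known set in an arm holds only genes higher there than in the arm compared. The deepest library was library 3 of the combination and the shallowest was library 1 of anti-CTLA-4, and the part of depth was not tested.

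**Figure D2:**
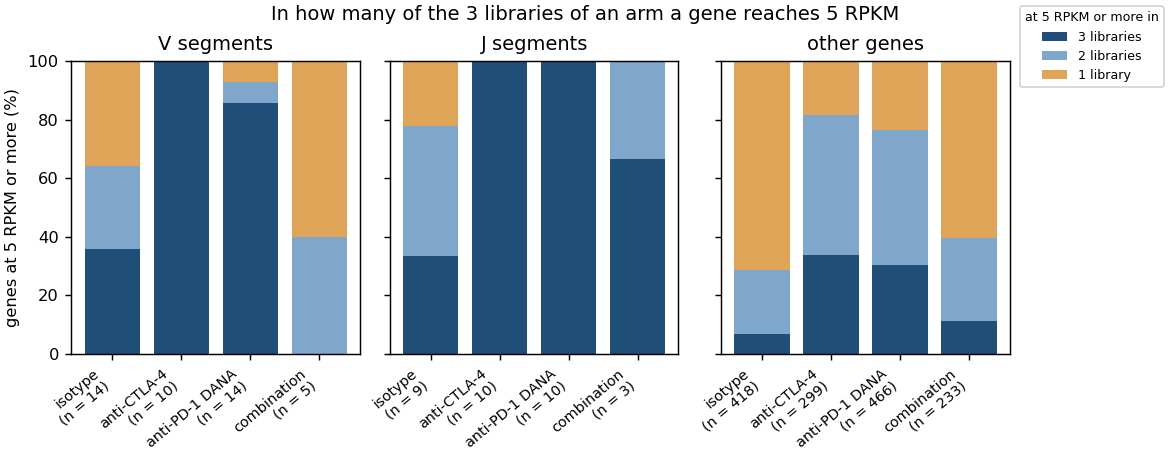
Share (%) of genes with a known arm mean of 5 RPKM or more that reached 5 RPKM in 3, 2 or 1 libraries of an arm, for V segments, J segments and other genes within the V segments' range of reads; n is the number of genes. All 10 V segments after anti-CTLA-4 reached it in 3 libraries, and 0 of 5 under the combination.

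Among the 8 V segments with the highest deposited means, some were present in every library known and others swung between libraries. Trbv13-2, the highest V segment of isotype, stood at 54.5, 117 and 92.2 RPKM (mean 87.8 ± 31.3, SD, n = 3), above each treated mean. Trbv16 stood at 72.6, 45.7 and 45.9 RPKM in isotype and at 125, 121 and 74.7 RPKM after anti-CTLA-4, where it had the highest V mean of any arm, 107.2 ± 28.2 RPKM (SD, n = 3). The groups did not overlap, but its fold change in the authors' deposited table was log2 0.00 ± 1.37. On RPKM means the log2 ratio was 0.97, since the authors' scaling lies 0.94 below library size in this comparison. Trbv29 was in all libraries known, at 39.3, 52.0 and 29.0 RPKM in isotype and 70.5, 38.4 and 73.5 RPKM after anti-PD-1 DANA.

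Trbv17 showed the reverse under the combination. It had 3, 2161 and 76 reads there, or 0.326, 180.6 and 4.77 RPKM, the highest V level in any library known. Within combination library 2 Trbv17 made up 75.2% of the RPKM summed over the 7 V segments known in that arm. After anti-CTLA-4 Trbv17 was even, at 49.9, 35.2 and 32.3 RPKM, and after anti-PD-1 DANA it stood at 6.73, 76.2 and 71.1 RPKM. Its fold change under the combination in the authors' deposited table was log2 1.37 ± 1.69, not called (adjusted p = 0.9999).

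Further segments were high in 1 library or absent from 1 library of an arm. Under the combination Trbv5 had 4, 640 and 8 reads, while after anti-CTLA-4 it was even at 45.9, 43.1 and 43.9 RPKM. Trbv1 had 465, 1 and 356 reads under the combination. In isotype Trbv2 had 547, 5 and 1 reads, Trbv20 had 3, 583 and 690, and Trbv3 had 674, 769 and 7. No single library was low for all segments: isotype library 1 was lowest for Trbv20 and highest for Trbv2, and library 3 lowest for both Trbv2 and Trbv3. Trbv4, at 15.7, 55.3 and 59.8 RPKM in isotype and 17.2, 36.8 and 99.9 RPKM after anti-PD-1 DANA, was found in all libraries known.

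**Figure D3:**
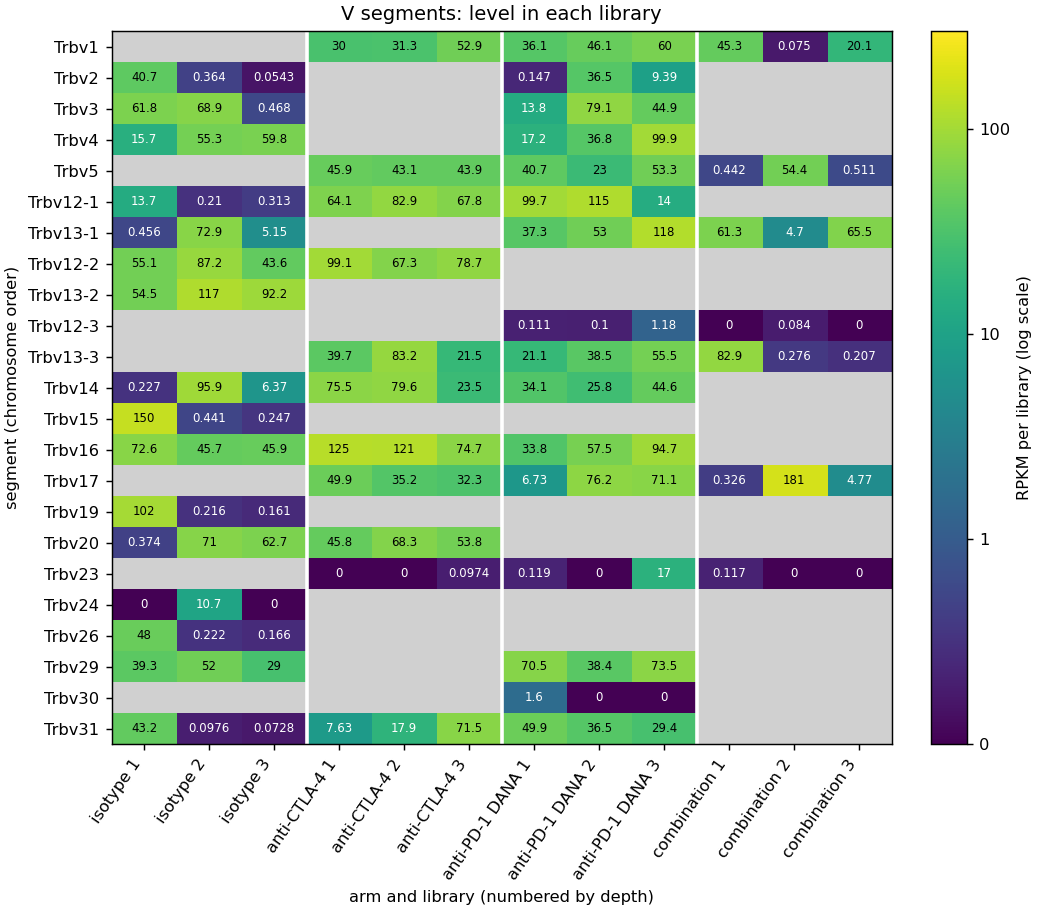
RPKM (colour, log scale, printed in each cell) of the V segments with reads, in chromosome order (rows), in each library (columns, numbered by depth within arm); grey cells are arms whose mean the tables do not give. Trbv15, Trbv19, Trbv26 and Trbv31 are high in only 1 of the isotype libraries, library 1, and Trbv12-1 is high after both single antibodies.

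Trbv12-1 was low in isotype and high after both single antibodies. It had 128, 2 and 4 reads in isotype, or 13.7, 0.210 and 0.313 RPKM. After anti-CTLA-4 it had 367, 616 and 780 reads, or 64.1, 82.9 and 67.8 RPKM, and after anti-PD-1 DANA 940, 1199 and 174 reads, or 99.7, 115 and 14.0 RPKM. Every library of either single antibody lay above every isotype library. After anti-PD-1 DANA the margin was narrow, with a lowest level of 14.00 RPKM against a highest of 13.73 RPKM in isotype. The shares of all such genes without overlap are given below. The combination mean was at most the isotype mean of 4.75 RPKM, so no combination library could exceed 14.2 RPKM. In the authors' deposited table Trbv12-1 stood at log2 2.93 ± 1.59 after anti-CTLA-4 (adjusted p = 0.714), 3.14 ± 1.59 after anti-PD-1 DANA (adjusted p = 0.575) and -3.99 ± 1.64 under the combination (adjusted p = 0.249), none of them called. On RPKM means the log2 ratio to isotype was 3.91 after anti-CTLA-4 and 4.01 after anti-PD-1 DANA.

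Levels in both arms were known for a set of segments with a treated mean of 5 RPKM or more. After anti-CTLA-4 the groups did not overlap in 2 of 13 such segments, Trbv12-1 and Trbv16, against 16.9% of all such genes. After anti-PD-1 DANA they did not overlap in 2 of 16, Trbv12-1 and Trbj1-2, against 11.5%. Under the combination Trbv13-1 was the 1 segment of this kind and its groups overlapped, against 12.7% of such genes that did not. Trbj1-2 was also a narrow case, with a lowest level of 34.24 RPKM after anti-PD-1 DANA and a highest of 34.23 RPKM in isotype. These shares are near the background, and in such pairs the treated mean is the higher one by construction. The smallest two-sided p of an exact permutation test of 3 against 3 libraries is 0.1, so single segments cannot pass 0.05 that way.

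Within the numbered subfamilies the levels of the members differed. Trbv12-2, 88.3% identical to Trbv12-1 over the aligned transcript, was high and even, at 55.1, 87.2 and 43.6 RPKM in isotype and 99.1, 67.3 and 78.7 RPKM after anti-CTLA-4. Trbv12-3, a pseudogene 83.0% identical to both, was listed at 0 in isotype and anti-CTLA-4, with 1, 1 and 14 reads after anti-PD-1 DANA and 0, 1 and 0 under the combination. Trbv13-2 and Trbv13-3 are the closest pair, 90.6% identical, and Trbv13-1 is 88.7% and 86.1% identical to these. Trbv13-1 had 4, 654 and 62 reads in isotype and 552, 55 and 1020 under the combination, and stood at 37.3, 53.0 and 118 RPKM after anti-PD-1 DANA. Trbv13-3 stood at 39.7, 83.2 and 21.5 RPKM after anti-CTLA-4 and at 21.1, 38.5 and 55.5 RPKM after anti-PD-1 DANA. Its fold changes in the authors' deposited tables, log2 2.56 and 2.39, were close to those of Trbv12-1 after the same antibodies, and neither was called. Under the combination Trbv13-3 had 693, 3 and 3 reads and a log2 fold change of 2.58 in the authors' deposited table, also not called, so within this subfamily too the library with most reads differed between segments. All 589 other V pairs were at most 75.8% identical, with a median of 52.0%. How the authors' counting placed reads that match several members of a subfamily is not given in the sources used here, so single values within Trbv12 and Trbv13 are less certain than others.

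The segments with few or no reads were mostly pseudogenes. All tables listed 12 V segments at 0, which were 11 of the 13 V pseudogenes and the gene Trbv21. Trbv24, whose in-frame stop is printed above, had 0, 91 and 0 reads in isotype. Its fold changes in the authors' deposited table were log2 -8.63 ± 3.33 after anti-CTLA-4 (adjusted p = 0.209) and -6.39 ± 2.52 under the combination (adjusted p = 0.206). Trbv23 had 1, 0 and 188 reads after anti-PD-1 DANA and a log2 fold change of 8.00 ± 3.10 in the authors' deposited table (adjusted p = 0.213). The reads behind each of these values came almost wholly from 1 library, and none was called. Trbv30 had 13, 0 and 0 reads after anti-PD-1 DANA. The J pseudogene Trbj2-6 was not tested and had 1 read in 1 anti-CTLA-4 library and 1 read in 1 anti-PD-1 DANA library.

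The J segments form the J1 and J2 clusters, each of 7 segments upstream of its own constant segment, and none was called. Trbj2-7 had the highest J mean, 217 ± 68.9 RPKM in isotype (SD, n = 3), from 176, 297 and 179 RPKM. Its fold change was the lowest of the J segments under the combination, log2 -2.84 ± 1.59 in the authors' deposited table (adjusted p = 0.775). Trbj2-1 stood at 185, 186 and 128 RPKM after anti-CTLA-4, 194, 168 and 277 RPKM after anti-PD-1 DANA and 95.1, 209 and 54.0 RPKM under the combination. These 2 segments were found in every library known.

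Other J segments showed the contrast between isotype and the single antibodies that the V segments did. Trbj2-4 stood at 0.851, 126 and 0 RPKM in isotype, from 1, 151 and 0 reads, but at 80.4, 74.8 and 93.8 RPKM after anti-CTLA-4 and 53.1, 52.6 and 47.9 RPKM after anti-PD-1 DANA. It was high in 1 isotype library and even over the single-antibody libraries. Its log2 fold changes in the authors' deposited table were 0.19 after anti-CTLA-4, -0.38 after anti-PD-1 DANA and 0.01 under the combination. Trbj1-5 had 0, 1 and 70 reads in isotype, 20, 19 and 11 after anti-CTLA-4 and 37, 36 and 70 after anti-PD-1 DANA. Trbj1-1 had 0, 154 and 50 reads in isotype and 55, 55 and 61 after anti-CTLA-4. In Trbj2-5 the isotype libraries held 135, 39 and 3 reads, and those of anti-CTLA-4 75, 105 and 145. Trbj2-2 had 136, 244 and 2 reads under the combination and 35, 62 and 156 after anti-CTLA-4. Trbj2-3 was found in every library known, between 27.9 and 126 RPKM in isotype, 35.3 and 138 RPKM after anti-CTLA-4 and 62.3 and 107 RPKM after anti-PD-1 DANA. Trbj1-4 was the evenest of the 3 J segments known under the combination, with 38, 51 and 32 reads.

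J transcripts are 46 to 54 bases long, so at a like RPKM they hold far fewer reads than V segments. A J mean of 5 RPKM or more rested on 71 to 817 reads in isotype and on 50 to 503 after anti-CTLA-4, against 426 to 2446 and 883 to 2537 for V segments. Trbj1-7, which lacks the motif letters, had 2, 0 and 0 reads after anti-CTLA-4. Trbj1-6, which lacks them too, had 59, 46 and 35 reads in isotype. Of the 3 J segments without the letters, Trbj1-6 was thus the exception, since Trbj1-7 and Trbj2-6 had at most 2 reads in any library known.

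**Figure D4:**
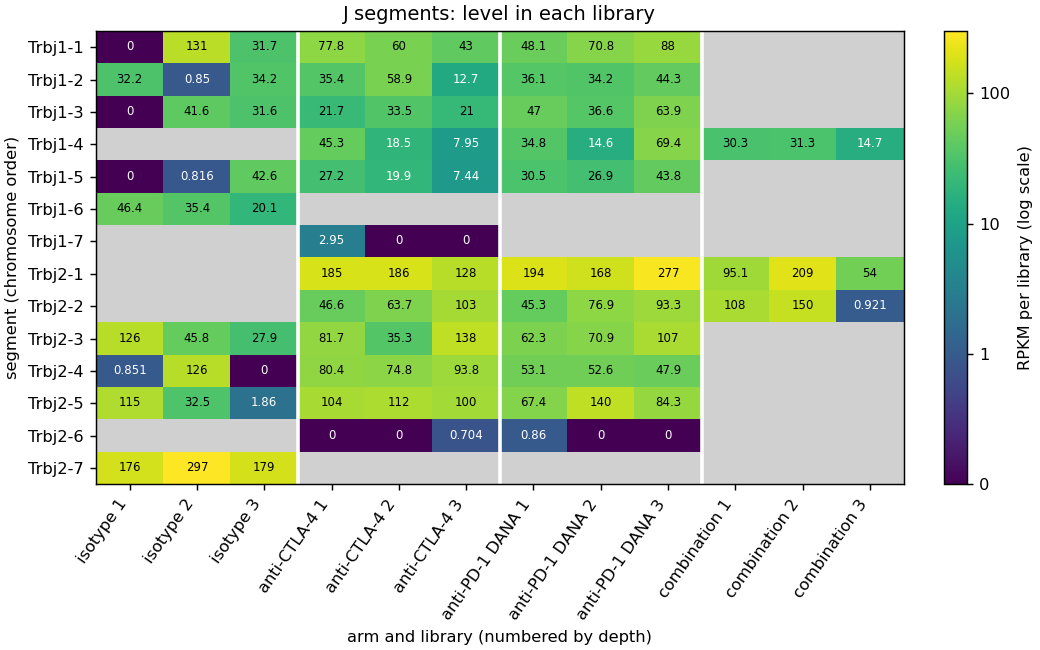
RPKM (colour, log scale, printed in each cell) of the J segments (rows) in each library (columns, numbered by depth within arm); grey cells are arms whose mean the tables do not give. Trbj2-4 is 126 RPKM in isotype library 2 and under 1 RPKM in the other isotype libraries, and between 47.9 and 93.8 RPKM in the 6 libraries of the single antibodies.

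Between treatments, Trbv12-1 was the only segment called. The difference of its log2 fold changes in the authors' deposited tables was -6.92 ± 1.61 for the combination against anti-CTLA-4 (adjusted p = 0.0118, normal test of the difference over all genes), where 0.903% of all tested genes were called. Against anti-PD-1 DANA it was -7.13 ± 1.61 (adjusted p = 0.0121 by the same normal test on the authors' deposited tables), where 0.449% of all tested genes were called. The combination was lower in both. Of the segments called against isotype in the authors' deposited table, Trbv19 and Trbv31 came nearest against anti-CTLA-4, at -6.44 ± 1.73 (adjusted p = 0.0549) and -6.72 ± 1.84 (adjusted p = 0.0639). From the authors' deposited tables Trbv14 stood at -8.36 ± 2.47 (adjusted p = 0.113), Trbv15 at -5.84 ± 1.79 (adjusted p = 0.150) and Trbv26 at -6.54 ± 3.30 (adjusted p = 1). With library size scaling Trbv14, Trbv15, Trbv19 and Trbv31 were called as well against anti-CTLA-4, where 1.63% of all tested genes were. With the upper bound of the error for every gene, no segment was called in either comparison, and 0.0561% and 0.0336% of all tested genes were. Between the single antibodies no segment was called, and 0.00% of all tested genes were called.

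Across the tested segments, directions under the single antibodies depended on scaling. The median log2 fold change of the 36 segments in the authors' deposited table was -0.58 after anti-CTLA-4, -0.27 after anti-PD-1 DANA and -1.09 under the combination, and that of all tested genes -0.62, -0.45 and -0.42. Library size scaling adds 0.94, 0.82 and 0.11 to these, which turns the segments' medians to 0.37, 0.55 and -0.98. The same constant is added to every gene, so counts of directions move for segments and other genes alike. After anti-CTLA-4 11 of the 36 segments and 7241 of the 17833 tested genes lay above isotype on the authors' scale, and 25 and 11777 by library size. After anti-PD-1 DANA it was 16 segments and 7760 genes on the authors' scale, and 27 and 11767 by library size. Under the combination 11 segments lay above isotype on both scales, and 7661 genes on the authors' scale and 7903 by library size. V segments had a median of -1.21 and J segments of -0.68 under the combination in the authors' deposited table. The implied standard error of a segment had a median of 1.77 to 1.79 and a lowest value of 1.37, and that of all tested genes a median of 1.93 to 1.95.

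The parts of the receptor shared by all beta chains were not called. Of 9 genes of the receptor chains and complex 7 were tested and 0 were called in any comparison (background shares as above). The D segments Trbd1 and Trbd2, which are shorter than any J segment, were listed at 0. This does not show that they are unused. The constant segments Trbc1 and Trbc2, joined to every beta V segment, stood at log2 -0.29 ± 0.44 and -0.11 ± 0.37 under the combination in the authors' deposited table. Their larger means in the authors' deposited table of the combination were 368 and 1000 RPKM. Trac, the alpha constant segment, stood at -0.80 ± 0.46, and the CD3 chains Cd3d, Cd3e and Cd3g at 0.73, -0.96 and 0.14 in the authors' deposited table of the combination. Cd247, which encodes the signalling zeta chain, stood at -0.01 ± 0.67 there in the authors' deposited table. Inside the locus 32 listed genes are not V or J segments, Trbc1, Trbc2, Trbd1 and Trbd2 among them. None of the 32 was called, 26 were at 0 in all tables and 5 were tested. Rag1 and Rag2, the recombinase genes, were listed at 0. Dntt, which adds bases at the junctions, stood at log2 7.92 ± 2.57 after anti-CTLA-4 (adjusted p = 0.0871) and 7.79 ± 2.57 after anti-PD-1 DANA (adjusted p = 0.0988) in the authors' deposited table. Ptcra, the alpha chain of the pre-receptor, had a larger mean of at most 0.235 RPKM in the authors' deposited tables.

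The libraries also held RNA of genes that mark other cells. All 8 CD8 T cell markers were tested and none was called, with summed larger means of 2918 to 3662 RPKM in the authors' deposited tables. All 7 B cell markers were tested, with summed larger means of 315 to 625 RPKM, and Ms4a1, a B cell surface protein, was called higher after anti-CTLA-4 (log2 6.03, adjusted p = 0.0255) in the authors' deposited table. Cd4 was also called higher after anti-CTLA-4 (log2 8.23, adjusted p = 0.039) in the authors' deposited table. Its larger mean there was low, 2.48 RPKM, against 138 RPKM for Cd8a. Trbv segments of CD4 T cells would be counted with those of CD8 T cells. Of 3 myeloid markers listed, with summed larger means of 60.6 to 103.5 RPKM, 1 was called in each of the authors' deposited tables. These were C1qa lower after anti-CTLA-4, Csf1r higher after anti-PD-1 DANA and Lyz2 lower under the combination. Their larger means there were 11.4, 3.88 and 49.1 RPKM. Directions within the 3 markers were mixed. In the authors' deposited tables Lyz2, Csf1r and C1qa stood at log2 0.02, -1.59 and -9.69 after anti-CTLA-4. They stood at -0.62, 8.44 and -1.72 after anti-PD-1 DANA, and at -4.26, 4.04 and -4.41 under the combination. None of the 4 gamma delta T cell genes was called, with summed larger means of 6.44 to 17.5 RPKM. Of the 2 NK cell markers Ncr1 was at 0 in all tables. The other, Klrb1c, was tested and not called, with larger means of 0.00929 to 1.39 RPKM. Its highest log2 fold change in the authors' deposited tables was 6.24, after anti-PD-1 DANA. The part of these cells in the segments' values was not tested.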

How the data were processed

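RNA of 12 libraries, 3 splits of 1 pool in each of 4 arms, was amplified with 21 cycles from 0.25 ng. The labels' protocols name CLC Genomics Workbench for alignment and quantification, and the submitters' processing notes name the build GRCm38.p5. Which version, annotation and statistical model were used is not given in the sources used here. Group means, of which the authors deposited the larger, are in RPKM, a unit that no header names and that was read from the values. Fold changes were deposited by the authors on the log2 scale and as a signed score (the ratio, with a minus sign for a fall), positive where the treated arm is higher. The p-values, false discovery rates and Bonferroni p-values deposited by the authors were corrected over all 48709 listed genes, of which 17833 were tested. The tables hold no value per library, so the authors' test was used against isotype. An exact test on recovered levels could be had only for segments known in both arms and cannot pass 0.05 with 3 libraries each.

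The members and gene lists were chosen with earlier results of these data known. A standard error was taken as the size of the log2 fold change divided by the normal deviate of its p-value, which assumes a Wald test. Differences between treatments used equal variances of the group means where the 3 errors lay within 5% of each other, and otherwise an upper bound. Reads per library were solved from the deposited RPKM means to 10 decimals, each as a sum of whole reads divided by depth and GENCODE M21 exon length, where at most 0.05 solutions were due by chance. Over all genes this solved 64.5 to 70.4% of means tried, against 0.244 to 1.34% with lengths off by 1 base. All 319 simulated read triples were recovered, and 2 of their means could be solved with the sizes of another arm. Trbj1-3 was solved with the length of a single transcript, 50 bases in place of 54, chosen after seeing the data. Amplified reads without molecular identifiers are not independent molecules. Recovered depths were 23973359 to 32867235 reads in isotype, 14729713 to 29583827 after anti-CTLA-4, 24233466 to 31943900 after anti-PD-1 DANA and 24594651 to 42556869 under the combination. Library size scaling was set by 418, 229 and 177 genes with both means known. Segments named are the called ones, the 8 V and 5 J segments with the largest deposited mean and the numbered subfamilies. Others were named after their values were seen. Alternatives were other adjustments, other scaling, a larger mean of 1 or 5 RPKM or more, removal of genes resting on 1 library, and the upper bound of the error. Python 3.11.15, numpy 2.4.6, pandas 2.3.3, scipy 1.17.1, numba 0.67.0, Biopython 1.88 and matplotlib 3.10.9 were used.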

Additional observations from a re-analysis of the deposited data

Results flagged for a closer look

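The response of Trbv12-1 differed between treatments by a test of the difference itself. From the log2 fold changes in the authors' deposited tables, the combination minus anti-CTLA-4 was -6.92 ± 1.61 (adjusted p = 0.0118, normal test of the difference over all genes). By the same normal test on the authors' deposited tables the combination minus anti-PD-1 DANA was -7.13 ± 1.61 (adjusted p = 0.0121). All 6 libraries of the single antibodies lay at 14.0 RPKM or above, and 14.2 RPKM is the upper limit for a combination library. Levels of single combination libraries are not known, and with the upper bound of the error neither difference was called.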

How the results depend on the processing

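No paired analysis was possible because the tables hold no value per library and their columns carry no replicate number. The 5 calls under the combination were 5 with adjustment over tested genes alone (12.5% of all genes called), with library size scaling (7.62%) and with a larger mean of 5 RPKM or more (22.1%), and 6 at 1 RPKM or more, where Trbv24 joined them and 26.7% of genes were called. They were 0 with Bonferroni adjustment (0.415%) and 0 without segments resting on 1 library (7.06%). The genes behind the 7.06% include those whose reads were not solved, which this filter could not leave out. At 1 RPKM or more 1 segment was called after anti-CTLA-4 (Trbv24, lower) and 1 after anti-PD-1 DANA (Trbv23, higher), where 21.2% and 20.7% of genes were called. The other alternatives called 0. Against anti-CTLA-4 the combination had 1 call, 0 with the upper bound of the error (0.0561% of all genes), 4 with adjustment over tested genes alone (1.98%) and 5 with library size scaling (1.63%). Against anti-PD-1 DANA it had 1 call, 0 with the upper bound (0.0336%), 4 over tested genes alone (1.26%) and 4 with library size scaling (1.28%). The causes were not tested. Leaving out each isotype library in turn, chosen after seeing the data, moved the isotype mean of Trbv14 between 3.30 and 51.1 RPKM, Trbv15 between 0.344 and 75.0, Trbv19 between 0.189 and 51.0, Trbv26 between 0.194 and 24.1 and Trbv31 between 0.0852 and 21.7. The authors' tests could not be refitted without a library. An arm's mean is known only where it is the larger of a pair.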
